A study of Arabidopsis thaliana with 8 samples.

Results

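The WRKY family is one of the largest families of plant transcription factors, and 67 of the 27655 genes in the deposited table of Arabidopsis thaliana were named WRKY followed by digits. These 67 genes were chosen by name alone. Of them, 44 had at least 1 TPM in at least 2 of the 8 libraries, where TPM is a transcript level scaled for gene length and library size. These 44 were tested, together with all 19697 genes of the table that met the same filter. The remaining 23 were not tested. WRKY10, WRKY59, WRKY64, WRKY66 and WRKY68 were listed at 0 in every library, and the others peaked at 6 reads or fewer in any library, except WRKY51, which had 5.31 TPM (14 reads) in 1 wild-type control library.

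WRKY proteins carry a conserved DNA-binding domain with a zinc finger and bind W-boxes, short promoter motifs built on TTGAC that many WRKY genes also carry themselves. They act downstream of mitogen-activated protein kinase cascades and of salicylic acid in immunity, and they also act in leaf senescence, phosphate starvation, abscisic acid signalling and heat tolerance. The family is divided by domain number and zinc finger type into group I, with a pair of WRKY domains in most members, groups IIa to IIe and group III.

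RNA-seq was done on whole 7-day-old seedlings of prp43a-1, a T-DNA insertion mutant (SALKseq_42682), and of Col-0 wild type. Both were held at 38 °C for 16 h (heat) or kept at 22 °C (control), so that the 4 groups were prp43a heat, wild-type heat, prp43a control and wild-type control, with 2 biological replicates each. All seedlings grew on MS agar with sucrose in long days (16 h light, 8 h dark), and the mutant was represented by this 1 insertion line. PRP43 is known from yeast as an RNA helicase that takes apart spliceosomes and works in ribosome biogenesis.

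The mutated gene, AT3G62310, had 10.3 and 8.24 TPM in prp43a heat libraries, against 64.6 and 72.4 TPM in wild-type heat libraries. It had 1.68 and 1.44 TPM in prp43a control libraries, against 26.7 and 29.8 TPM in wild-type control libraries, so the libraries matched their genotype labels. The libraries held 4071035 to 4783628 reads as recovered from the TPM values, and 10 TPM of a gene with 1500 bases of exon stood for 37 to 44.7 reads. The summed level of 4 shoot marker genes was 13448 to 17561 TPM in the heat libraries of both genotypes and 38934 to 40131 TPM in the control libraries. That of 4 root marker genes was 166 to 208 TPM with heat and 1239 to 1434 TPM without, and no marker was at 0 in any library. All 4 shoot markers were called lower with heat in each genotype, but only 2 of the 4 root markers were. The median log2 fold change of the root markers was -0.77 in prp43a and -1.04 in wild type, so their sum follows the most abundant ones. The part of this shift in the WRKY results was not tested, and in whole seedlings fewer cells of a type and less RNA per cell cannot be told apart. The labels do not say at which hour either set was harvested, so daily rhythm and heat cannot be told apart.

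W-boxes stood in the annotated promoters of members that moved in either direction with heat. The W-box was searched as TTGACC or TTGACT on both strands (GGTCAA or AGTCAA when it lies on the other strand) in the 500 bases before the annotated start of each gene in the RefSeq copy of the genome, build TAIR10.1. It was found in 37 of the 67 members (55.2%), against 12397 of 27444 promoters of the table (45.2%). The 5 stretches below end at the base before the annotated start and run 5′ to 3′ on the gene's strand, with each W-box in capitals. They are shown because WRKY32 and WRKY18 were higher with heat in both genotypes, WRKY30 and WRKY53 were lower in both, and WRKY33 was lower in wild type. They lie at chr4:15054108-15054207 (WRKY32, minus strand), chr4:15382637-15382776 (WRKY18, plus strand), chr5:8154711-8154850 (WRKY30, minus strand), chr4:12393983-12394082 (WRKY53, minus strand) and chr2:16108095-16108234 (WRKY33, plus strand).
WRKY32: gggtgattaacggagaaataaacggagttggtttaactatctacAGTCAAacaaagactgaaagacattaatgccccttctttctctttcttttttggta
WRKY18: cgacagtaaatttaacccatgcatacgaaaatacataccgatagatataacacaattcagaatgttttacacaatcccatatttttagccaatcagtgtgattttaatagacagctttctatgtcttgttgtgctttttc
WRKY30: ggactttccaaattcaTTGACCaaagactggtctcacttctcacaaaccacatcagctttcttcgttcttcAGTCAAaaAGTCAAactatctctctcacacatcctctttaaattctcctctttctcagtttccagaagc
WRKY53: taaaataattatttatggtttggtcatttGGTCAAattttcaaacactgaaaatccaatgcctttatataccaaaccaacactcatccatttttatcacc
WRKY33: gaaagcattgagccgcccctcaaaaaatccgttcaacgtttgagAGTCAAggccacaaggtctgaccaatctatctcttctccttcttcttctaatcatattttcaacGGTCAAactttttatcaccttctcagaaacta

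The stretch before WRKY30 held 3 W-boxes, that before WRKY33 held 2, those before WRKY32 and WRKY53 held 1 each, and that before WRKY18 held 0. The stretches differ in length, with 140 bases for WRKY30, WRKY33 and WRKY18 and 100 bases for WRKY32 and WRKY53, so these counts cannot be compared. In the 500 bases WRKY30 and WRKY33 had 3 each, WRKY32 and WRKY53 had 2 each, and WRKY18 had 0. Over the whole 500 bases a W-box was found in 3 of the 5 members called higher with heat in both genotypes and in 6 of the 9 called lower in both. The heat shock element, searched as GAANNTTC, was found in 17 of 67 members (25.4%), against 18.3% of all promoters. It was found in 1 of those 5 higher members and in 2 of those 9 lower members. A match is only a description of these letters in this window.

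Of the WRKY genes called with heat in wild-type seedlings, more were lower than higher. Of the 44 tested, 6 were higher and 17 were lower in wild-type heat than in wild-type control libraries (limma on log2(TPM + 1), called at a Benjamini-Hochberg adjusted p below 0.05 over all genes tested). Of all genes tested, 42.4% were called higher and 27.6% lower, 70% in all, so that being called with heat is common. The other 21 of the 44 members were not called, so members were called less often than all genes. The median log2 fold change was -0.29 over the 44 members and 0.25 over all genes. With median-of-ratios scaling the calls were 5 higher and 21 lower among the members, and 6529 higher and 6915 lower among the 19697 genes. The median over all genes was then -0.03 and that over the members -0.54. Of all called genes 60.5% were higher, and 48.6% with that scaling.

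In prp43a seedlings 8 of the 44 members were called higher and 10 lower in heat than in control libraries, where 43.1% of all genes were called higher and 27% lower, 70.1% in all. Here 26 members were not called, again a smaller share called than among all genes. The median log2 fold change was -0.00 over the members and 0.28 over all genes. With median-of-ratios scaling 6 members were higher and 17 lower, and the median over the members was -0.25. Of the 19697 genes, 6495 were then higher and 6871 lower, with a median of -0.02, so calls shifted towards lower over the whole table too. The heat comparisons of the 2 genotypes share no libraries. The 5 members called higher in both were 62.5% of the calls in prp43a and 83.3% of those in wild type, and the 9 called lower in both were 90% and 52.9%. No member was called in opposite directions, and 17 members were called in neither genotype. Among the members called lower in 1 or both genotypes, WRKY30, WRKY36, WRKY14 and WRKY8 reached 1 TPM only in control libraries. They passed the filter through the groups where they were high, so a call of lower was the likely one, and their calls are description only.

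**Figure D1:**
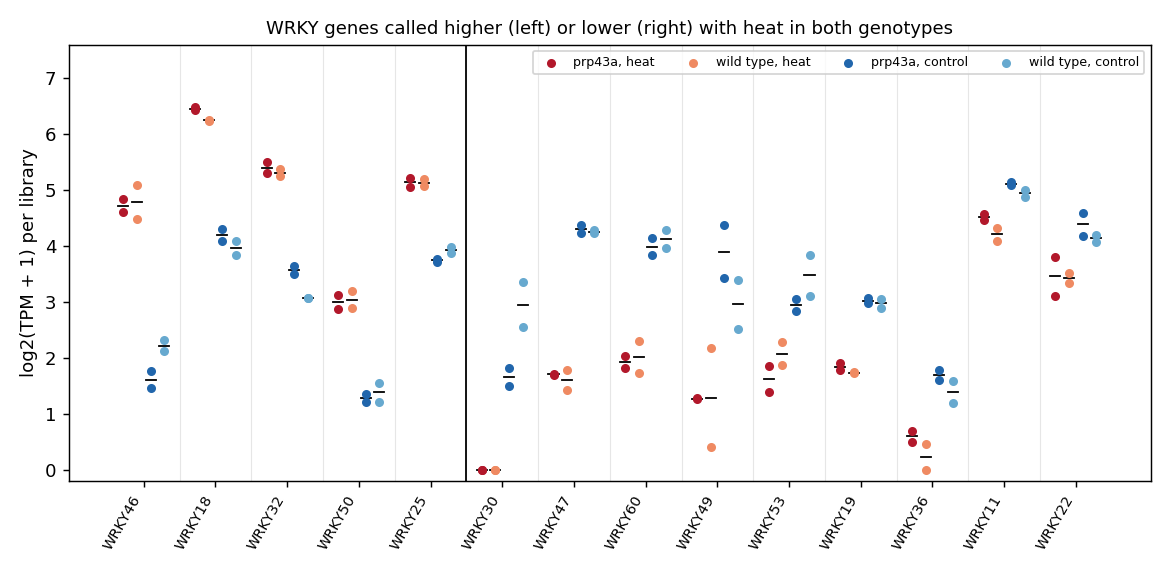
Levels as log2(TPM + 1) in each of the 8 libraries (points, with a bar at the mean of each group) for the 5 WRKY genes called higher and the 9 called lower with heat in both genotypes. For each gene the heat and control points of a genotype stand apart, and WRKY30 is at 0 in all 4 heat libraries.

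WRKY18 became the most abundant WRKY transcript of heated seedlings in both genotypes. It encodes a group IIa factor (AT4G31800, chr4:15382777-15385100, plus strand) that dimerizes with WRKY40 and WRKY60 and acts with them in basal defence and abscisic acid signalling. In prp43a it had 88.2 and 85.6 TPM with heat, against 16.1 and 18.8 TPM at control temperature. In wild type it had 75.5 and 74.6 TPM with heat, against 13.3 and 16.1 TPM. All 4 heat libraries lay far above all 4 control libraries, and replicates lay close together. The log2 fold change was 2.26 in prp43a (limma, adjusted p = 1.5e-07) and 2.28 in wild type (SE 0.12, limma, adjusted p = 1.4e-07).

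By mean TPM, WRKY18 ranked 1st among the 67 members in both heat groups, 10th in prp43a control and 12th in wild-type control libraries. Alone it made up 17.2% and 15.4% of the summed TPM of these 67 members in prp43a heat libraries and 15.9% and 14.9% in wild-type heat libraries. In control libraries its share was 3.75% and 4.21% in prp43a and 2.59% and 3.61% in wild type. The summed TPM of all 67 members was 513 and 557 in prp43a heat, 475 and 500 in wild-type heat, 429 and 446 in prp43a control and 513 and 445 in wild-type control libraries.

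The 3 group IIa genes did not move together with heat. WRKY60 (AT2G25000) had 3.07 and 2.52 TPM in prp43a heat, against 13.4 and 16.6 TPM in prp43a control libraries. It had 2.31 and 3.94 TPM in wild-type heat, against 18.4 and 14.6 TPM in wild-type control libraries. Every heat library was below every control library, opposite to WRKY18, with log2 fold changes of -2.07 in prp43a and -2.11 in wild type (limma, adjusted p = 3.3e-05 and 2.9e-05). WRKY40 (AT1G80840), a repressor in abscisic acid signalling and basal defence, had 4.89 and 5.41 TPM in prp43a heat, against 4.05 and 5.15 TPM in prp43a control libraries. It had 4.41 and 8.29 TPM in wild-type heat, against 7.86 and 7.67 TPM in wild-type control libraries. The groups overlapped in both genotypes, and WRKY40 was called in neither (log2 fold change 0.14 in prp43a and -0.31 in wild type, limma, adjusted p = 0.65 and 0.32).

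**Figure D2:**
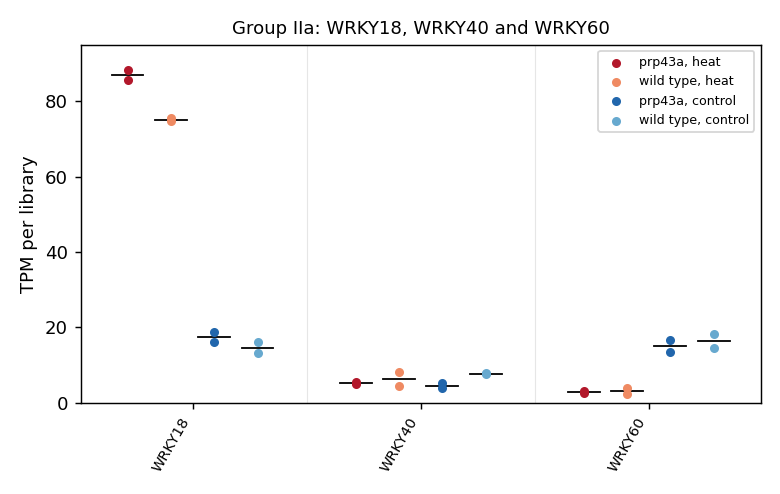
TPM of WRKY18, WRKY40 and WRKY60 in each of the 8 libraries, by group, with a bar at the mean. WRKY18 lies between 74.6 and 88.2 TPM in the 4 heat libraries, WRKY60 lies at or below 3.94 TPM there, and WRKY40 overlaps between heat and control in both genotypes.

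WRKY46 had the largest heat increase of the family in both genotypes. It encodes a group III factor (AT2G46400) known for salicylic acid-dependent defence and for stomatal responses. It had 23.3 and 27.6 TPM in prp43a heat, against 1.74 and 2.39 TPM in prp43a control libraries. It had 32.9 and 21.4 TPM in wild-type heat, against 3.98 and 3.36 TPM in wild-type control libraries. Heat and control did not overlap, and the replicates of wild-type heat differed more than those of the other groups. The log2 fold change was 3.12 (SE 0.23) in prp43a and 2.56 (SE 0.23) in wild type (limma, adjusted p = 1.2e-06 and 4.8e-06).

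WRKY32 and WRKY25, both of group I, also rose in both genotypes. WRKY32 (AT4G30935), whose promoter stretch with 1 W-box is printed above, had 38.4 and 44.1 TPM in prp43a heat, against 11.5 and 10.2 TPM in prp43a control libraries. It had 37.1 and 40.3 TPM in wild-type heat, against 7.38 and 7.40 TPM in wild-type control libraries. The log2 fold change was 1.83 in prp43a and 2.24 in wild type (limma, adjusted p = 1.2e-06 and 2.9e-07). WRKY25 (AT2G30250), which acts in heat tolerance with WRKY26 and WRKY33, had 32.4 and 36.3 TPM in prp43a heat, against 12.7 and 12.1 TPM in prp43a control libraries. It had 32.5 and 35.7 TPM in wild-type heat, against 13.7 and 14.8 TPM in wild-type control libraries. Heat and control libraries of both genes stood apart in both genotypes, with log2 fold changes of WRKY25 of 1.40 in prp43a and 1.20 in wild type (limma, adjusted p = 5.5e-06 and 1.6e-05).

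WRKY50 (AT5G26170), a group IIc factor by which salicylic acid represses jasmonate responses, was the fifth member called higher in both genotypes. It had 6.37 and 7.73 TPM in prp43a heat, against 1.55 and 1.33 TPM in prp43a control libraries, and 6.41 and 8.12 TPM in wild-type heat, against 1.33 and 1.94 TPM in wild-type control libraries. Heat and control libraries did not overlap, and the increase was 1.72 in prp43a and 1.65 in wild type on the log2 scale (limma, adjusted p = 0.00012 and 0.00016).

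The other members tied to heat tolerance behaved differently from WRKY25. WRKY26 (AT5G07100) had 11.6 and 7.58 TPM in prp43a heat, against 13.2 and 12.8 TPM in prp43a control libraries, and 8.11 and 9.30 TPM in wild-type heat, against 13.7 and 14.7 TPM in wild-type control libraries. Its heat libraries were the lower ones in both genotypes, and the fall passed the test in wild type (-0.65, limma, adjusted p = 0.015) and missed it in prp43a (-0.43, limma, adjusted p = 0.079). WRKY39 (AT3G04670), a calmodulin-binding group IId factor, had 15.0 and 13.7 TPM in prp43a heat, against 18 and 19.5 TPM in prp43a control libraries, and 13.4 and 17.8 TPM in wild-type heat, against 21.3 and 16.9 TPM in wild-type control libraries. It was called in neither genotype (log2 fold change -0.37 in prp43a and -0.28 in wild type, limma, adjusted p = 0.086 and 0.18). With median-of-ratios scaling WRKY39 was called lower in both genotypes (-0.68 in prp43a and -0.58 in wild type), and WRKY26 was called lower in prp43a too (-0.73).

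Among the members that fell in both genotypes, WRKY47 and WRKY30 fell most in wild type. WRKY47 (AT4G01720), of group IIb, had 2.29 and 2.25 TPM in prp43a heat, against 17.9 and 19.7 TPM in prp43a control libraries, and 2.43 and 1.69 TPM in wild-type heat, against 18.4 and 17.8 TPM in wild-type control libraries. Its 4 heat libraries were all far below its 4 control libraries, and the log2 fold change was -2.60 in prp43a and -2.65 in wild type (limma, adjusted p = 1.4e-06 and 1.2e-06). WRKY30 (AT5G24110), a group III gene with 3 W-boxes in the stretch printed above, had 0 reads in all 4 heat libraries. It had 1.82 and 2.50 TPM (7 and 9 reads) in prp43a control libraries and 9.18 and 4.89 TPM (33 and 18 reads) in wild-type control libraries. The log2 fold change was -1.65 in prp43a and -2.95 in wild type (limma, adjusted p = 0.00098 and 1.7e-05). At a floor of 3 reads per library, a bound that was not tested, the mean was at least 2.32-fold lower with heat in prp43a and at least 8.27-fold lower in wild type. No read of WRKY30 was counted in any heated library, and its control level rested on few reads in prp43a.

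WRKY53 (AT4G23810), a group III regulator of leaf senescence, had 1.61 and 2.63 TPM in prp43a heat, against 7.32 and 6.16 TPM in prp43a control libraries. It had 2.65 and 3.87 TPM in wild-type heat, against 13.3 and 7.63 TPM in wild-type control libraries. The highest heat library was below the lowest control library, and the log2 fold change was -1.33 in prp43a and -1.40 in wild type (limma, adjusted p = 0.0025 and 0.0019). WRKY19 (AT4G12020), an unusual protein that joins a WRKY domain to disease-resistance receptor and kinase domains, had 2.73 and 2.45 TPM in prp43a heat, against 6.89 and 7.37 TPM in prp43a control libraries. It had 2.35 and 2.31 TPM in wild-type heat, against 7.26 and 6.46 TPM in wild-type control libraries. The groups of WRKY19 did not overlap, and its log2 fold change was -1.18 in prp43a and -1.24 in wild type (limma, adjusted p = 0.00056 and 0.00041).

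WRKY11 and WRKY22 had the highest mean TPM over the 8 libraries of the members that fell in both. WRKY11 (AT4G31550), a calmodulin-binding group IId factor that restrains basal resistance, had 21.0 and 22.8 TPM in prp43a heat, against 34.2 and 33.2 TPM in prp43a control libraries, and 18.9 and 16.1 TPM in wild-type heat, against 28.4 and 31.2 TPM in wild-type control libraries. The 4 heat libraries were all below the 4 control libraries (log2 fold change -0.60 in prp43a and -0.74 in wild type, limma, adjusted p = 0.0018 and 0.00048). WRKY22 (AT4G01250), which acts below the flagellin receptor's kinase cascade, had 7.64 and 12.9 TPM in prp43a heat, against 17.2 and 23 TPM in prp43a control libraries, and 10.5 and 9.11 TPM in wild-type heat, against 17.3 and 15.8 TPM in wild-type control libraries. Its fall was -0.93 in prp43a and -0.71 in wild type on the log2 scale (limma, adjusted p = 0.0047 and 0.020).

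WRKY49 of group IIc and WRKY36 of group IIb completed the 9. WRKY49 (AT5G43290) varied widely within groups, with 1.42 and 1.39 TPM in prp43a heat, against 9.70 and 19.8 TPM in prp43a control libraries, and 0.320 and 3.53 TPM in wild-type heat, against 4.72 and 9.51 TPM in wild-type control libraries. The heat values still lay below the control values in each genotype (-2.63 in prp43a and -1.66 in wild type, limma, adjusted p = 0.0014 and 0.018), but without replicate 1 of wild-type heat the change in wild type was -0.78 (limma, adjusted p = 0.18). WRKY36 (AT1G69810) stayed at or below 2.42 TPM in every library and fell in both, with log2 fold changes of -1.09 in prp43a and -1.16 in wild type (limma, adjusted p = 0.0079 and 0.0057). It reached 1 TPM only in the control libraries and was tested through them alone.

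Across the family groups, calls with heat were spread rather than gathered in one group. In group I, of 10 tested members 2 rose and 1 fell in prp43a, and 2 rose and 4 fell in wild type. In group IIb, of 4 tested none rose, 2 fell in prp43a and 3 fell in wild type, and in group IIe, of 6 tested none rose and 2 fell in each genotype. In group IIc, of 10 tested 2 rose and 1 fell in prp43a, and 2 rose and 3 fell in wild type. In group IId, of 6 tested 2 rose and 1 fell in prp43a, and 1 fell in wild type. In group III, of 5 tested members out of 12, WRKY46 rose in both genotypes, 2 fell in prp43a and 3 fell in wild type. The groups are small and were not tested against each other.

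**Figure D3:**
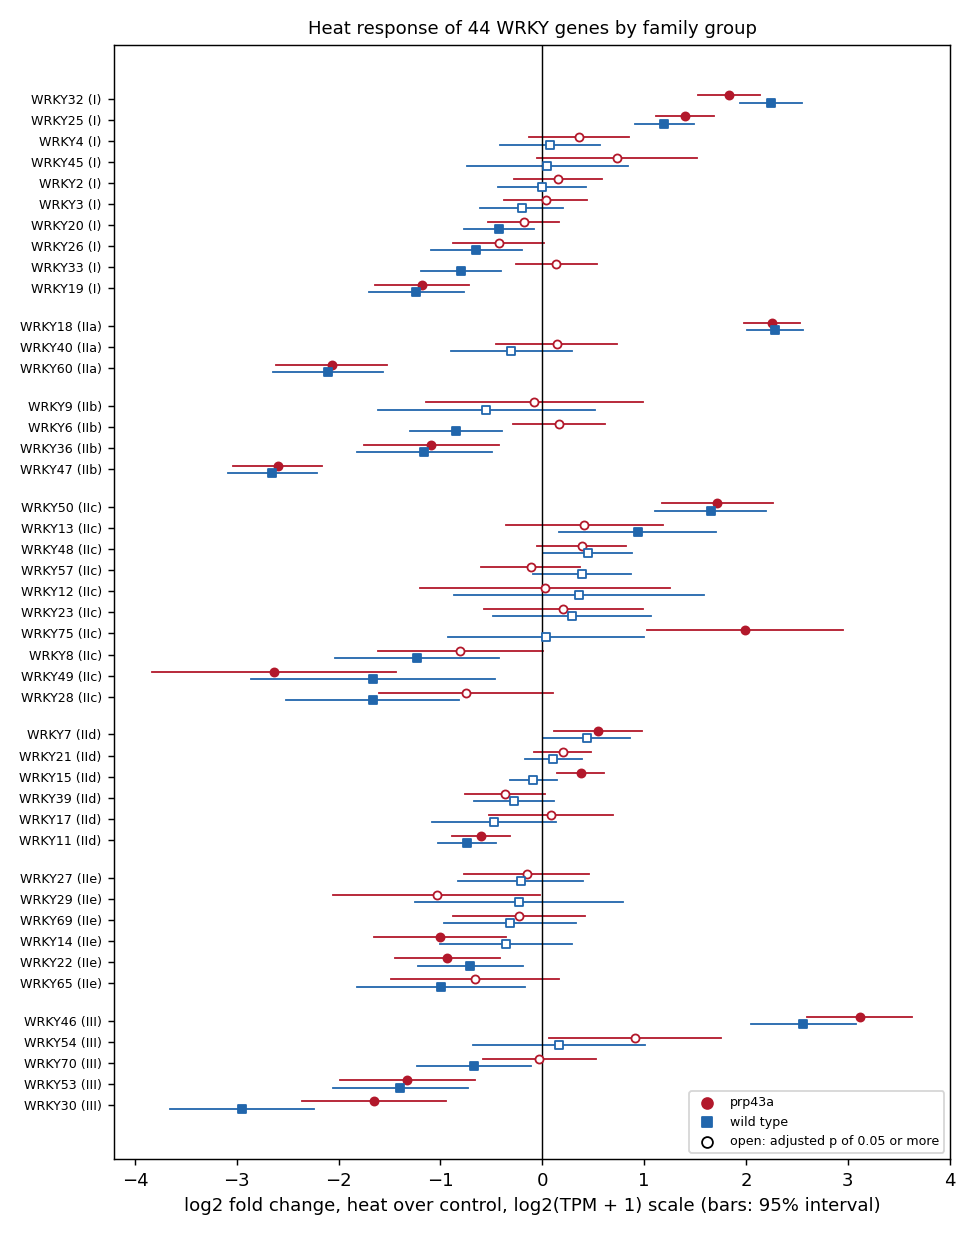
Log2 fold change of heat over control on the log2(TPM + 1) scale for each of the 44 tested WRKY genes, by family group, in prp43a (circles) and wild type (squares), with 95% intervals and open symbols for members that were not called. Groups IIb and IIe hold no called increase, and group III spans from WRKY46 at the top to WRKY30 at the bottom.

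Some members were called with heat in 1 genotype only, and for none of them did the test of the difference between genotypes pass. WRKY33 (AT2G38470, chr2:16108235-16110766, plus strand) activates camalexin synthesis below the kinases MPK3 and MPK6, is needed against necrotrophic fungi and acts in heat tolerance. It had 27.2 and 34 TPM in prp43a heat, against 30.1 and 25.1 TPM in prp43a control libraries. It had 24.9 and 28.9 TPM in wild-type heat, against 55.6 and 40.2 TPM in wild-type control libraries. The wild-type control libraries were the high ones, and the other 6 libraries shared one range. The log2 fold change was 0.14 in prp43a and -0.80 in wild type (limma, adjusted p = 0.50 and 0.0024), and the difference between them was 0.94 (limma, adjusted p = 0.64).

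WRKY6, a group IIb factor of senescence and phosphate homeostasis (AT1G62300), was also highest in the wild-type control libraries. It had 8.91 and 10.3 TPM in prp43a heat, against 9.55 and 7.43 TPM in prp43a control libraries, and 7.09 and 5.69 TPM in wild-type heat, against 13.5 and 11 TPM in wild-type control libraries. The log2 fold change was 0.17 in prp43a and -0.84 in wild type (limma, adjusted p = 0.48 and 0.0038), a difference of 1.0 (limma, adjusted p = 0.64). WRKY70 (AT3G56400), a group III factor between salicylic acid and jasmonate signalling, had 6.89 and 9.48 TPM in prp43a heat, against 9.36 and 7.33 TPM in prp43a control libraries, and 9.44 and 8.72 TPM in wild-type heat, against 19.3 and 11.7 TPM in wild-type control libraries. Its fall in wild type was -0.67 (limma, adjusted p = 0.034), and its value in prp43a was -0.03 (limma, adjusted p = 0.92). Without replicate 1 of wild-type control the fall was -0.33. The call in wild type was lost in 6 of 18 other settings, among them no filter, no mean-variance trend and a fit of the compared groups alone. WRKY28 (AT4G18170), an activator of the salicylic acid synthesis gene ICS1, fell by 1.67 on the log2 scale in wild type (limma, adjusted p = 0.0029), where it had 0.754 and 1.26 TPM with heat, against 7.66 and 3.62 TPM at control temperature. In prp43a WRKY28 had 2.51 and 1.64 TPM with heat, against 2.77 and 5.93 TPM at control temperature, and it was not called (-0.75, limma, adjusted p = 0.10), but was with median-of-ratios scaling (-0.99).

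WRKY75 (AT5G13080), a group IIc factor of phosphate starvation, root hairs and senescence, was called higher in prp43a. It had 5.50 and 5.41 TPM in prp43a heat, against 0.829 and 0.443 TPM in prp43a control libraries, and 4.06 and 1.81 TPM in wild-type heat, against 4.88 and 1.30 TPM in wild-type control libraries. The prp43a groups stood apart, whereas both wild-type groups held 1 high and 1 low library. The log2 fold change was 1.99 in prp43a (limma, adjusted p = 0.0022) and the difference from wild type was 1.95 (limma, adjusted p = 0.71), or 1.28 without replicate 1 of wild-type control and 2.63 without replicate 2. WRKY15 and WRKY7 of group IId were also called higher in prp43a, by 0.38 and 0.55 on the log2 scale (limma, adjusted p = 0.0081 and 0.027). In wild type WRKY7 changed in the same direction without being called (0.44, limma, adjusted p = 0.066), and WRKY15 was at -0.09 (limma, adjusted p = 0.46). WRKY15 (AT2G23320) had 47.7 and 51.8 TPM in prp43a heat, against 36.9 and 39.1 TPM in prp43a control libraries, and 41.8 and 43.9 TPM in wild-type heat, against 47.8 and 43.6 TPM in wild-type control libraries. WRKY7 (AT4G24240) had 28.4 and 31.2 TPM in prp43a heat, against 18.6 and 21.6 TPM in prp43a control libraries, and 21.8 and 28.7 TPM in wild-type heat, against 15.1 and 22.1 TPM in wild-type control libraries. Both calls were lost with median-of-ratios scaling, where the changes were 0.05 for WRKY15 and 0.22 for WRKY7. WRKY14 was called lower in prp43a (-1.0, limma, adjusted p = 0.011) at levels up to 2.17 TPM. In wild type WRKY13 was called higher (0.94, limma, adjusted p = 0.033) and WRKY8 lower (-1.23, limma, adjusted p = 0.012), both at no more than 3.06 TPM in any library. WRKY20 and WRKY65, chosen for mention after their values were seen, were the other 2 members called in wild type, at -0.42 and -1.0 (limma, adjusted p = 0.032 and 0.033). In prp43a WRKY65 also fell, without being called (-0.66, limma, adjusted p = 0.14).

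Other members with known roles passed no test with heat in either genotype. WRKY17, which restrains basal resistance with WRKY11, had 8.71 and 9.07 TPM in prp43a heat, against 7.43 and 9.35 TPM in prp43a control libraries, and 4.04 and 6.68 TPM in wild-type heat, against 9.82 and 5.93 TPM in wild-type control libraries. WRKY57, a factor of drought tolerance, had 8.81 and 7.5 TPM in prp43a heat, against 11 and 7.11 TPM in prp43a control libraries, and 10.8 and 11.9 TPM in wild-type heat, against 9.02 and 7.78 TPM in wild-type control libraries. WRKY45, a factor of phosphate uptake and senescence, ranged over 3.21 to 9.25 TPM in the 8 libraries. WRKY29 of the flagellin response had 3.20 and 1.14 TPM in prp43a heat, against 7.23 and 3.61 TPM in prp43a control libraries (-1.04, limma, adjusted p = 0.064), and was called lower there in 8 of 17 other settings. WRKY54, a negative regulator of senescence with WRKY70, had 1.42 and 0.834 TPM in prp43a heat, against 0 and 0.251 TPM in prp43a control libraries (0.91, limma, adjusted p = 0.052), and was called higher there in 6 of 17. In prp43a the heat values of WRKY29 lay below, and those of WRKY54 above, the control values. WRKY2, WRKY23 and WRKY12 also passed no heat test, and WRKY34, a pollen gene, was not tested.

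At control temperature no WRKY gene was called between prp43a and wild type. Of all genes 0.0711% were called (14, all lower in prp43a), so calls were rare in this comparison. At an unadjusted p below 0.05 there were 9 of the 44 members and 1760 of the 19697 genes, and limma voom on recovered reads called 0 members too. The median log2 fold change of the members was -0.02, against 0.01 for all genes. The 5 members with the lowest p were WRKY33, WRKY30, WRKY32, WRKY70 and WRKY75.

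WRKY33 had 30.1 and 25.1 TPM in prp43a control, against 55.6 and 40.2 TPM in wild-type control libraries (log2 fold change -0.76, SE 0.18, limma, adjusted p = 0.23). WRKY30 had 1.82 and 2.50 TPM in prp43a, against 9.18 and 4.89 TPM in wild type (-1.30, SE 0.32, limma, adjusted p = 0.25). WRKY32 had 11.5 and 10.2 TPM in prp43a, against 7.38 and 7.40 TPM in wild type (0.50, SE 0.14, limma, adjusted p = 0.30). In these 3 genes the groups did not overlap, as in 39.5% of all genes tested, and WRKY32 was the one higher in prp43a. WRKY70 and WRKY75 had log2 fold changes of -0.79 and -1.18 (limma, adjusted p = 0.36 and 0.45), and for both genes the prp43a values lay below the wild-type values.

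The differences of WRKY33, WRKY30, WRKY70 and WRKY75 depended on which wild-type control library was used, and that of WRKY32 hardly did. Replicate 1 of wild-type control was the highest of the 4 control libraries for 19 of the 44 members, against 10 and 9 for the prp43a control libraries and 6 for replicate 2 of wild-type control. Of all genes tested, 27.9% were highest in that replicate. It was above replicate 2 in 31 of 44 members (70.5%), against 51.4% of all genes. Without it the log2 fold change between prp43a and wild type was -0.53 for WRKY33, -0.90 for WRKY30, -0.45 for WRKY70 and -0.50 for WRKY75, and it was 0.50 for WRKY32. Leaving out the lower wild-type library instead, replicate 2, gave -0.99 for WRKY33, -1.70 for WRKY30, -1.13 for WRKY70 and -1.85 for WRKY75. With 2 libraries, leaving out the higher one must shrink such a difference. Over all genes, 6 were called without that replicate and 48 without replicate 2 of wild-type control.

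**Figure D4:**
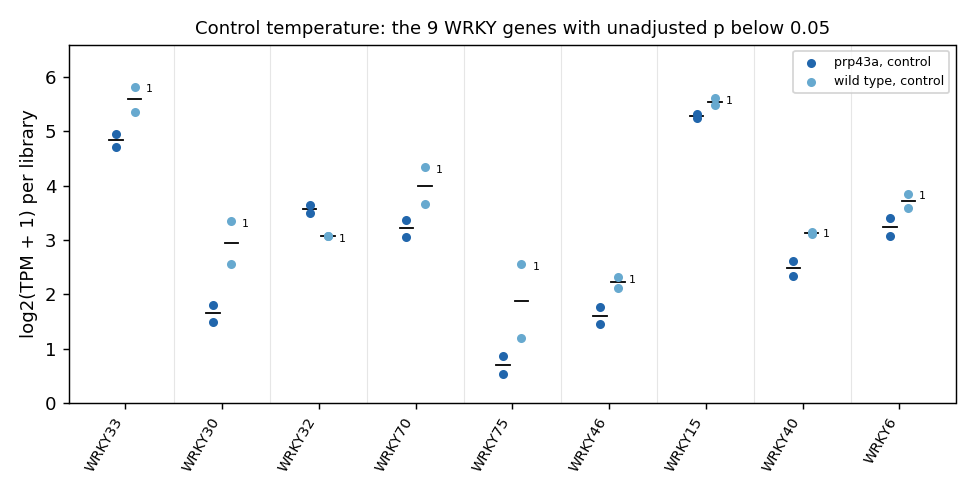
Levels as log2(TPM + 1) in the 4 control libraries (points, with a bar at the mean of each group) for the 9 WRKY genes with an unadjusted p below 0.05 between prp43a and wild type, with wild-type replicate 1 marked by its number. WRKY32 is higher in both prp43a libraries than in both wild-type libraries, and the other 8 genes are lower, with wild-type replicate 1 the highest library for all 8.

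After heat no WRKY gene was called between prp43a and wild type either, where 0.00508% of all genes were called (1 gene, lower in prp43a). At an unadjusted p below 0.05 there were 3 members, among 899 of all genes. WRKY6 had 8.91 and 10.3 TPM in prp43a heat, against 7.09 and 5.69 TPM in wild-type heat libraries (log2 fold change 0.53, limma, adjusted p = 1.0). WRKY17 and WRKY11 followed, at 0.67 and 0.31, and then WRKY15 and WRKY57, at 0.21 and -0.43, none of them below an adjusted p of 1.0 (limma). In WRKY6 and WRKY17 both prp43a values were above both wild-type values, and the groups did not overlap in 30.3% of all genes tested. The median log2 fold change was 0.09 over the members and 0.03 over all genes.

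The test of whether heat acted differently in the genotypes called 0 members, and 0.0102% of all genes (2 genes). At an unadjusted p below 0.05 there were 5 members, WRKY33, WRKY6, WRKY75, WRKY15 and WRKY30, among 1237 of all genes. The first 4 had a positive difference, that is, a heat change in prp43a above that in wild type, of 0.94, 1.0, 1.95 and 0.47 on the log2 scale. The value of WRKY30, 1.30, is its difference at control temperature with the sign turned, since it had 0 reads in all 4 heat libraries, and says nothing of its heat response. The 5 share the wild-type control libraries described above.

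The genes that work with WRKY factors moved with heat as follows, where 43.1% of all genes were called higher and 27% lower in prp43a, and 42.4% and 27.6% in wild type. Of 10 tested VQ proteins, small partners that bind WRKY domains, none rose and 2 fell in prp43a, and 1 rose and 3 fell in wild type. SIB2, a partner of WRKY33, averaged 5.90 ± 0.383 TPM in prp43a heat and 22.4 ± 4.26 TPM in prp43a control libraries, and 4.77 ± 0.553 TPM in wild-type heat and 21.8 ± 1.20 TPM in wild-type control libraries (SD, n = 2 each). Of 14 kinases of the MAPK and calcium-dependent families, 6 rose and 3 fell in prp43a, and 5 rose and 3 fell in wild type. MPK3, which phosphorylates WRKY33, fell, with log2 fold changes of -0.93 in prp43a and -1.30 in wild type, whereas MPK4, which holds WRKY33 through a VQ protein, rose, by 1.04 and 1.21.

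Of 22 tested defence and hormone genes linked to WRKY factors, 3 rose and 12 fell in prp43a, and 1 rose and 16 fell in wild type. FRK1, a target of WRKY22 and WRKY29, averaged 0.222 ± 0.102 TPM in prp43a heat and 11.4 ± 2.37 TPM in prp43a control libraries, and 0.677 ± 0.193 TPM in wild-type heat and 16.3 ± 6.69 TPM in wild-type control libraries (SD, n = 2 each). CYP71A12, of camalexin synthesis, fell, with log2 fold changes of -1.51 in prp43a and -4.18 in wild type, and had 37.7 and 9.61 TPM in libraries of wild-type control, the higher one being replicate 1. Its change in wild type was -3.25 without that replicate and -5.12 without replicate 2. Its call in prp43a was lost in 5 other settings, voom among them. Of 6 heat genes linked to WRKY25, WRKY26, WRKY33 and WRKY39, none fell, 6 rose in prp43a and 4 rose in wild type. HSFA2, a heat shock factor of prolonged heat, averaged 80.5 ± 1.02 TPM in prp43a heat and 3.14 ± 0.112 TPM in prp43a control libraries, and 87.7 ± 10.02 TPM in wild-type heat and 3.41 ± 1.40 TPM in wild-type control libraries (SD, n = 2 each). In these 4 lists no gene was called between prp43a and wild type, at either temperature, or in the difference of the heat responses. At an unadjusted p below 0.05 there were 9 of the 22 defence and hormone genes between prp43a and wild type at control temperature, against 1760 of all 19697 genes. The median log2 fold change over the 22 was -0.46, against 0.01 for all genes. In the difference of the heat responses there were 7 of the 22, against 1237 of all genes. The list was chosen with earlier results known. Both comparisons use replicate 1 of wild-type control, and these counts were not repeated without it.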

How the data were processed

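RNA-seq of 8 libraries (TruSeq Stranded mRNA, paired-end 75-base reads, per the labels' protocols) was used. The authors made the deposited TPM table against TAIR10 (submitters' processing notes). Which aligner and counter they ran, and whether by strand, is not given in the sources used here. Of the tested members, 9 overlap another gene on the opposite strand, among them WRKY19, WRKY33, WRKY40 and WRKY53, and reads of such pairs may not have been told apart.

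The deposited TPM values were tested as log2(TPM + 1) with limma 3.58.1 in R 4.3.3, with a mean-variance trend, 1 mean per group over all 8 libraries, a filter of 1 TPM in 2 libraries and Benjamini-Hochberg adjustment over 19697 genes. Fold changes on this scale understate those of low genes. With 2 libraries per group the p-values rest on a spread shared across genes. Reads were recovered from TPM and exon length (99.2% of 126841 values up to 200 reads were whole within 0.05) for limma voom, with all 536 member values whole. The scripts were tested on simulated data. Between genotypes at control temperature, a 1.5-fold effect was missed in all 50 genes that carried it. Effects of 2-fold were detected for 23 genes out of 50, and effects of 4-fold for 49. For the difference of the heat responses the numbers detected were 0, 8 and 41 out of 50. The simulated effects were placed only in genes above a minimum mean read number, with 1 fixed spread (dispersion 0.02). Many members have fewer reads or a wider spread, and for them these numbers do not hold. In these comparisons 0 calls thus cannot exclude differences of 2-fold or less, nor larger ones in such members. At control temperature WRKY75, at -1.18 on the log2 scale, was not called. Counting error limits low members.

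Members were chosen by name, and the members, lists, groups and tests were chosen with earlier results of these data known. Named were, per genotype, the 8 called members with the highest and the 8 with the lowest heat change, the 5 with the lowest p in the other comparisons, the 5 with the highest mean, and 26 with established roles. WRKY63 has another name in the table. Family groups come from textbook knowledge and were not checked against proteins. Tried alternatives were pseudocount, filter, scaling, trend, replicate block, fewer groups, voom and leaving out libraries.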

Additional observations from a re-analysis of the deposited data

How the results depend on the processing

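Each comparison was run under up to 10 other settings and with each library left out. The counts of members called with heat stayed within 1.5 times in every setting run but one: with median-of-ratios scaling 17 members, against 10, were lower in prp43a. Leaving out 1 library gave 6 to 9 higher and 10 to 12 lower in prp43a, and 5 to 6 higher and 12 to 17 lower in wild type. Between genotypes and for the difference of the heat responses every setting called 0 members. A threshold of 5 TPM left 31 members. WRKY18, WRKY32, WRKY46, WRKY50, WRKY25, WRKY47, WRKY60, WRKY30, WRKY19, WRKY53, WRKY36 and WRKY11 were called in both genotypes wherever they were tested. In wild type the calls of WRKY13, WRKY49, WRKY8, WRKY70, WRKY26, WRKY22, WRKY20 and WRKY65 were each lost in at least 1 setting, and in prp43a those of WRKY7, WRKY15, WRKY14 and WRKY22. Of the members not called, 10 of 26 in prp43a and 7 of 21 in wild type were called in at least 1 setting. In prp43a these were WRKY29, WRKY39, WRKY26, WRKY8, WRKY20, WRKY28 and WRKY65 (lower) and WRKY54, WRKY45 and WRKY48 (higher), and in wild type WRKY17, WRKY15, WRKY3, WRKY39 and WRKY40 (lower) and WRKY7 and WRKY48 (higher). The cause was not tested.

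Uncalled log2 fold changes near 0 changed sign. In prp43a, WRKY33 was at -0.18 and -0.14, WRKY6 at -0.13 and -0.0877, and WRKY40 at -0.14 and -0.020 with median-of-ratios and quantile scaling. Leaving out 1 library in prp43a gave -0.018 to 0.29 for WRKY33, -0.24 to 0.17 for WRKY70 and -0.0005 to 0.28 for WRKY40. In wild type, WRKY75 was at -0.006 with a pseudocount of 5 and at -0.18 with median-of-ratios scaling. Leaving out 1 library in wild type gave -0.64 to 0.71 for WRKY75 and -0.70 to 0.085 for WRKY40.

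Libraries with the same replicate number did not deviate together over all genes tested (r from -0.03 to 0.03 between groups). The sources do not say whether a number marks a shared batch, and these values cannot decide it. With a replicate block 8 members were higher and 12 lower with heat in prp43a, 7 and 17 in wild type, and 0 in the other comparisons.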

Other observations

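Of the 5 family genes that carry another name in the reference table, 4 were tested. ZAP1 (WRKY1) averaged 29.8 TPM over the 8 libraries, a level near that of the most abundant members, and was called higher with heat in prp43a (log2 fold change 0.37, limma, adjusted p = 0.023, but 0.05 and uncalled with median-of-ratios scaling) and not in wild type (0.20, limma, adjusted p = 0.19), and the difference between genotypes was not called (0.18, limma, adjusted p = 0.94). TTR1 (WRKY16) averaged 13.2 TPM, RRS1 (WRKY52), an immune receptor with a WRKY domain, 5.56 TPM, and TTG2 (WRKY44), a factor of trichome and seed coat development, 3.59 TPM, and none of these 3 was called in any comparison. ABO3 (WRKY63) averaged 0.359 TPM and was not tested.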
